A study of Rattus norvegicus and Bos taurus with 12 samples.

Results

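The genes described here encode proteins of pre-mRNA splicing and RNA helicases, and were taken from the listed genes by their symbols, which begin with Srsf, Hnrnp, Snrp, Sf3a, Sf3b, Rbm and a digit or x, Rbfox, Celf, Mbnl, Ptbp, Prpf, U2af, Ddx or Dhx, without the RNA sensors Ddx58 and Dhx58. Of 7052 genes listed for adult rat ventricular myocytes (ARVM), 73 were members, and of 2115 genes listed for bovine cardiac fibroblasts (Cfib), 21 were members, which made 86 different members among 7989 genes, with 8 members listed in both. RNA sequencing covered 12 libraries, 3 each of freshly isolated ARVM, ARVM kept for 7 days in conditioned media of Cfib from calves with pulmonary hypertension (PH-CM), Cfib of control calves (CO) and Cfib of calves with pulmonary hypertension (PH). The rats were adult Sprague Dawley, and the fibroblasts came from the right ventricular free wall of neonatal calves that had been housed at ambient altitude (CO) or under reduced atmospheric pressure (PH), and were cultured before RNA was taken. The study asked which transcripts differ in the fibroblasts that make the conditioned media and in the myocytes that lose their striations in it. In the sample labels, every library, also of the fresh ARVM, is given a treatment with cow serum from low or from high altitude, whereas the study's methods describe conditioned media and calves, and the groups are named here as the study names them. Fresh ARVM were never cultured. The media, the plating, the 7 days of culture and the time since isolation cannot be told apart in this comparison. The PH-CM ARVM libraries are called A, B and C here, in the order of their label numbers. The study states that Cfib of 3 animals per group were sequenced. For ARVM, the labels do not say whether libraries of 1 group came from separate rats, so that ARVM p-values measure the spread between these libraries only.

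Splicing is carried out by the spliceosome, a machine built from small nuclear ribonucleoproteins (snRNPs) that is rearranged step by step by RNA helicases of the DEAD-box (Ddx) and DEAH-box (Dhx) families. SR proteins (Srsf) and hnRNPs (Hnrnp) bind exons and introns and shift the choice of splice sites, often in opposite directions. In heart and skeletal muscle, a smaller set of tissue regulators, the Rbfox, Celf, Mbnl, Ptbp, Rbm20 and Rbm24 proteins, sets the exons of sarcomere and calcium-handling genes, titin among them, and their balance is known to shift between the fetal and the adult heart.

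ARVM values were normalized counts, which are reads divided by 1 size factor per library, on 12122463 to 18842171 reads per library over the listed genes. Cfib values are called a signal here. The study's methods describe counts normalized with DESeq2, but unlike in ARVM the values are not whole multiples of 1 step per library, so that their unit, any scaling by gene length and the depth are not settled. Groups were compared with limma on log2(value + 1). Fold changes of genes with few reads can thus be understated, or overstated where a single library of a group is at 0, as for Ddx25. The words "rose" and "fell" are used for an adjusted p under 0.05 (Benjamini-Hochberg over all listed genes of the table). Both tables hold only genes that the authors had selected for a difference between the same groups, and in each of the 73 and 21 members the groups did not overlap, as in 100% of the listed genes. A call therefore says little by itself, and the order, size and direction of the changes are described instead. Pearson correlations between libraries of a group, over listed genes that are not independent replicates, ran from 0.974 to 0.998, and the members' median coefficient of variation was 5.95% among fresh ARVM, 5.95% among PH-CM ARVM, 6.13% among CO Cfib and 3.27% among PH Cfib.

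In ARVM, 66 of 73 members passed the threshold (90.4%, against 97.6% of all listed genes). Of these, 34 rose in PH-CM (46.6% of members, against 53.9% of all listed genes) and 32 fell (43.8%, against 43.7%). The shares of 53.9% and 43.7% over all listed genes also stand beside the counts of each family below. The members' median log2 fold change was 0.11, compared with 0.37 over all listed genes, and rescaling the libraries by the median of ratios moved all genes by only −0.02 and turned no member's sign. Celf4, Mbnl3, Rbfox3 and Rbm47 had no reads in fresh ARVM, and placing them at their lower bounds leaves the median where it is, since these bounds lie above it. Changes were mostly small, and 9 members differed by a log2 fold change over 1 in size. The summed normalized counts of the members were 152604 to 160619 in fresh ARVM and 152012 to 161936 in PH-CM ARVM, ranges that overlap. The total over the listed genes was lower in PH-CM ARVM, and the members' share of it was 0.804% to 0.837% in fresh ARVM and 1.10% to 1.14% in PH-CM ARVM.

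The cells that gave these libraries differed in more than the members. All 12 cardiomyocyte markers fell in PH-CM, from a summed 1882571 to 1913967 normalized counts to 166393 to 204535, and no such marker was at 0. All 10 fibroblast markers rose, from 1451 to 1959 to 87076 to 130046, all 4 smooth muscle markers rose, from 824 to 1106 to 26798 to 44750, and all 7 proliferation markers rose, from 67.1 to 183 to 2694 to 4544. Of 8 leukocyte markers 7 rose and 1 fell (6779 to 7006 in fresh ARVM and 6727 to 9881 in PH-CM ARVM), of 7 endothelial markers 1 rose and 6 fell (7431 to 8886 and 3107 to 3716), and the 3 listed erythroid markers Hbb, Hba1 and Hbb-b1, at 2097 to 2493 together in fresh ARVM, had no reads in PH-CM ARVM. In these bulk samples fewer cells of a type and less RNA per cell cannot be told apart, and the part that these shifts have in any value below was not tested.

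**Figure D1:**
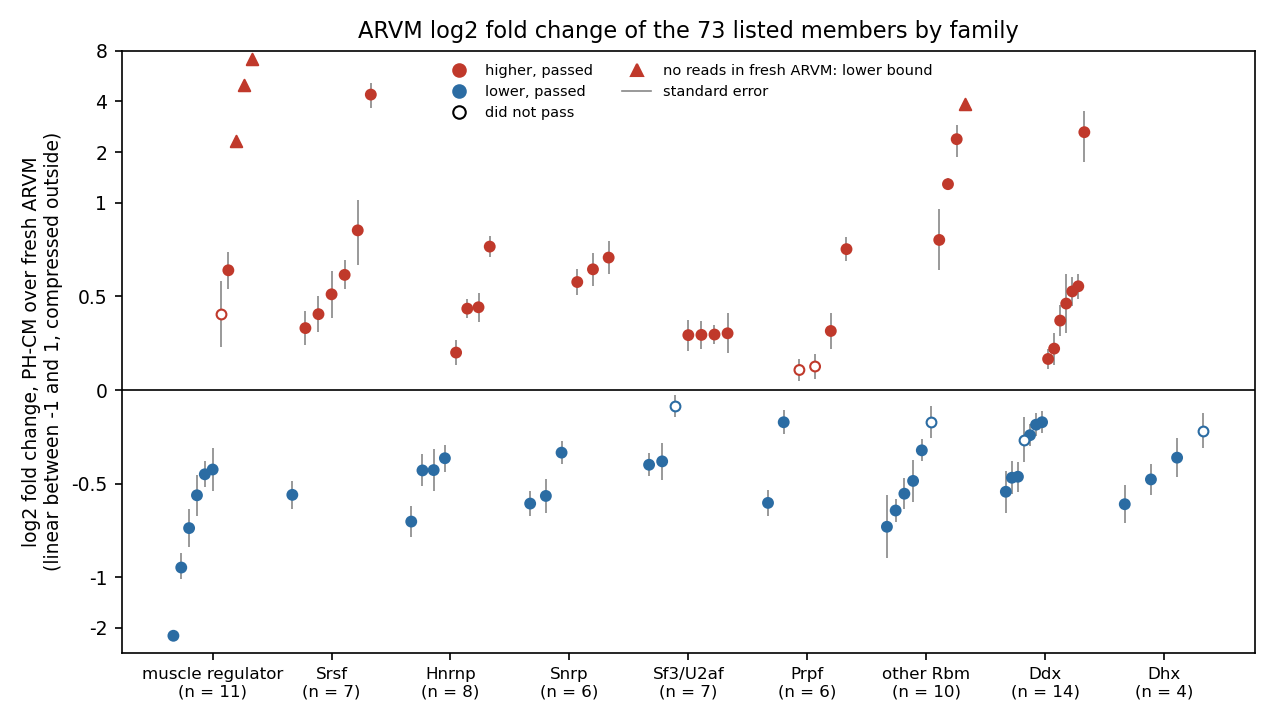
Log2 fold change of each of the 73 members listed for ARVM (vertical axis, PH-CM over fresh ARVM, linear between −1 and 1 and compressed outside), grouped by family along the horizontal axis and ordered by size within it. Filled red points are members that rose, filled blue points members that fell and open points the 7 that did not pass, bars are standard errors, and triangles give the lower bound for the 4 members with no reads in fresh ARVM. Most points lie within 1 of zero, the Srsf family lies above zero but for 1 member, and all 4 Dhx members lie below zero.

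The muscle and developmental splicing regulators held the largest rise and the largest fall of any member. Of 17 genes on the list, 11 were listed for ARVM (Rbfox2, Celf3, Celf5, Celf6, Mbnl2 and Ptbp3 were not), of which 4 rose, 6 fell and 1 did not pass. Rbfox1, which binds GCATG elements beside muscle and neuronal exons, had 1673, 1662 and 2068 normalized counts in fresh ARVM 4, 5 and 6 and 350.1, 409.8 and 389 in PH-CM ARVM A, B and C. It fell to 0.213 of its fresh level (log2 fold change −2.23, SE 0.11, limma adjusted p = 1.14e-06). Every PH-CM library lay far below every fresh library, and the fold change ran from −2.28 to −2.12 when each library was left out in turn. Rbm20, the titin splicing regulator whose mutation causes dilated cardiomyopathy, had 4165, 4528 and 4474 in fresh ARVM and 2147, 2516 and 2173 in PH-CM ARVM (log2 fold change −0.95, SE 0.076, limma adjusted p = 1.36e-05). Rbm24, which is needed for sarcomere assembly in the developing heart, had 1358, 1450.3 and 1670.4 in fresh and 1009, 1130.2 and 895 in PH-CM libraries (log2 fold change −0.56, SE 0.11, limma adjusted p = 0.00172). Both fell in all 3 PH-CM libraries, with Rbm20 near 0.519 and Rbm24 near 0.678 of the fresh mean, and in both PH-CM ARVM B was the PH-CM library nearest to the fresh ones.

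Celf1, a regulator that antagonizes Mbnl proteins at many exons and is known to decline as the heart matures, had 1190.1, 1268 and 1306 normalized counts in the fresh libraries and 944, 936 and 874 in the PH-CM libraries (log2 fold change −0.45, SE 0.070, limma adjusted p = 0.000522). Mbnl1, the muscleblind protein that promotes adult splice patterns, had 940.1, 898 and 938 in fresh and 761, 575 and 748 in PH-CM libraries (log2 fold change −0.42, SE 0.12, limma adjusted p = 0.0087). Both fell by similar proportions (to 0.732 and 0.751 of the fresh mean), and the PH-CM libraries were close for Celf1 and wider for Mbnl1, where PH-CM ARVM B was the lowest. Celf2, a close relative of Celf1, was the listed regulator that did not pass, with 168, 129.6 and 167 in fresh ARVM and 202, 220.0 and 191 in PH-CM ARVM (log2 fold change 0.41, SE 0.18, limma adjusted p = 0.0543). It passed in 3 of 14 alternative settings.

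The polypyrimidine tract-binding proteins, repressors of tissue-specific exons, moved in opposite directions. Ptbp1, the broadly expressed form, had 2220.4, 2294 and 2145 normalized counts in fresh ARVM and 3454, 3005 and 3984 in PH-CM ARVM, a rise to 1.57 times the fresh mean (log2 fold change 0.64, SE 0.099, limma adjusted p = 0.000497). Ptbp2, the form known from neurons, had 919, 761 and 771 in fresh and 516, 485 and 464 in PH-CM libraries and fell to 0.598 times the fresh mean (log2 fold change −0.74, SE 0.10, limma adjusted p = 0.000294). All fresh libraries lay below all PH-CM libraries for Ptbp1 and above them for Ptbp2, a separation that every listed gene has.

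Rbfox3, Mbnl3 and Celf4 had no reads in the 3 fresh libraries. Celf4, a Celf protein best known from the nervous system, had 178, 189.8 and 118 normalized counts in PH-CM ARVM A, B and C (595 reads in all), at least 137-fold higher than the level that 3 reads over the fresh group would give (limma adjusted p = 9.33e-07). Mbnl3, the muscleblind protein expressed in proliferating muscle precursors, had 43.9, 33.6 and 38.9 (143 reads), at least 32.97-fold higher (limma adjusted p = 4.16e-06). Rbfox3, which encodes the neuronal nuclear antigen NeuN, had 3.78, 5.18 and 9.31 (22 reads), at least 5.07-fold higher (limma adjusted p = 0.000427). All of the PH-CM libraries held reads of these genes, few in the case of Rbfox3, and counting error is the only error that these bounds cover. Of the 3, Rbfox3 had too few reads for the tests that filter on the mean (a minimum of 50, which also removed Mbnl3, and filterByExpr of edgeR), and counted there as not tested.

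**Figure D2:**
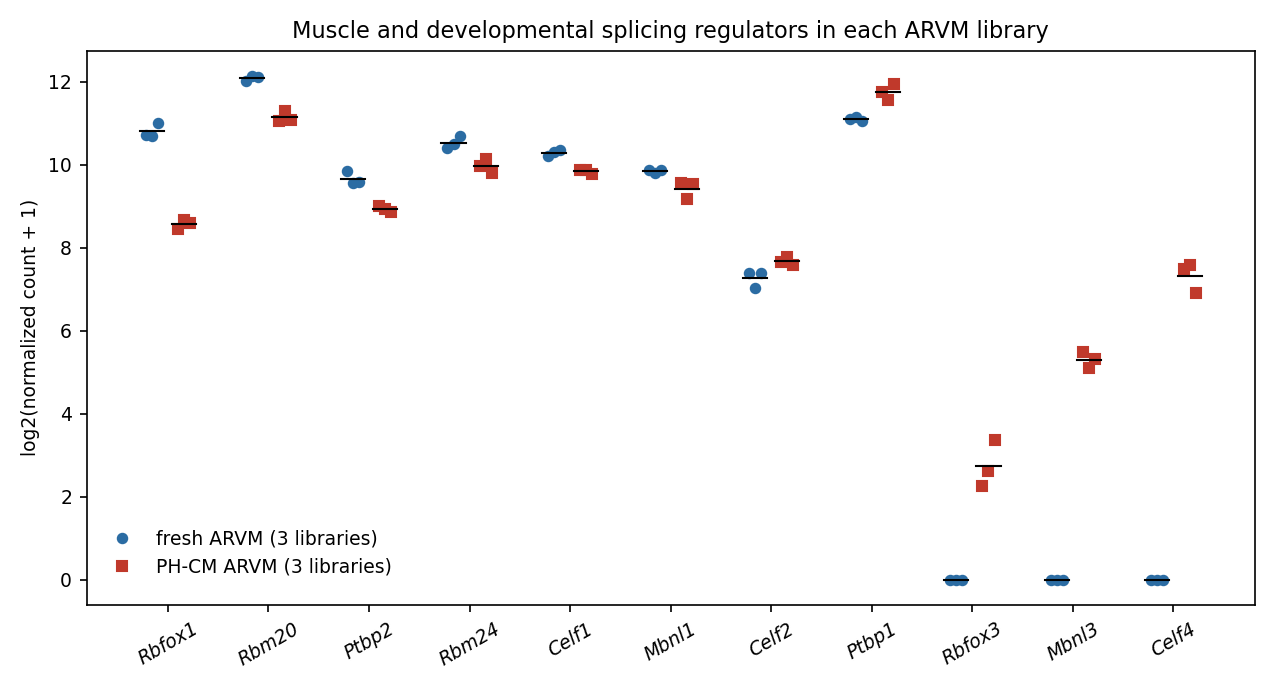
Level of the 11 listed muscle and developmental splicing regulators in each ARVM library (vertical axis, log2(normalized count + 1)), ordered by fold change along the horizontal axis. Blue circles are the 3 fresh and red squares the 3 PH-CM libraries, and the black lines are group means. The groups do not overlap for any gene, which holds for every listed gene. Rbfox1 shows the largest fall, and Rbfox3, Mbnl3 and Celf4 lie at 0 in every fresh library.

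The balance between related regulators was compared within each library, which cancels the library scaling. Groups did not overlap in any listed gene, so the ratio of 2 genes with opposite directions could not overlap either. For Ptbp1 to Ptbp2, Celf1 to Celf2 and Mbnl1 to Mbnl3, the lack of overlap and the permutation p were thus fixed in advance. Only the sizes of these differences are informative. The log2 ratio of Ptbp1 to Ptbp2 was 1.45 ± 0.16 (SD, n = 3) in fresh ARVM and 2.82 ± 0.25 in PH-CM ARVM, a difference of 1.38 with no overlap (exact permutation test, two-sided p = 0.1, adjusted p = 0.1 over 4 pairs, the smallest p that 3 against 3 allows). The log2 ratio of Celf1 to Celf2 was 3.02 ± 0.24 in fresh ARVM and 2.16 ± 0.070 in PH-CM ARVM, and that of Rbm20 to Rbm24 was 1.56 ± 0.12 and 1.17 ± 0.096. These differences of −0.86 and −0.39 had the same exact permutation p of 0.1 and no overlap. For Mbnl1 to Mbnl3 the ratio was lower in every PH-CM library, but its size depends on the pseudocount, since Mbnl3 had no reads in fresh ARVM (difference −5.73 at a pseudocount of 1 and −2.70 at 10, exact permutation p = 0.1). Ratios compare changes only, since counts are not scaled by gene length.

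The promoters of the Ptbp and Mbnl pairs that moved in opposite directions are shown because their base composition differs within a pair. They are the RefSeq rat sequences of GRCr8, from 250 bases before to 50 bases after the annotated start, 300 bases in all, with capitals marking each CCAAT and each GGGCGG on either strand (overlapping matches run together). Ptbp1 lies at chr7:10502908-10503207 on the minus strand, with 62.0% G and C and 3 CCAAT. Ptbp2 lies at chr2:210558228-210558527 on the minus strand, with 74.3% G and C and 2 GGGCGG. Mbnl1 lies at chr2:146819784-146820083 on the plus strand, with 76.7% G and C and 2 overlapping GGGCGG, and Mbnl3 at chrX:135582925-135583224 on the minus strand, with 39.7% G and C and 1 CCAAT.
Ptbp1: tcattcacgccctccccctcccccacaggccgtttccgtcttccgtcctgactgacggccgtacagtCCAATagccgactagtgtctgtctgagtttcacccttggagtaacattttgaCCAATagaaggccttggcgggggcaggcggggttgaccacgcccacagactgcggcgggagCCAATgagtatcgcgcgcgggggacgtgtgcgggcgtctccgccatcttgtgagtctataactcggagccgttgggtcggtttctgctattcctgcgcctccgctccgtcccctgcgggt
Ptbp2: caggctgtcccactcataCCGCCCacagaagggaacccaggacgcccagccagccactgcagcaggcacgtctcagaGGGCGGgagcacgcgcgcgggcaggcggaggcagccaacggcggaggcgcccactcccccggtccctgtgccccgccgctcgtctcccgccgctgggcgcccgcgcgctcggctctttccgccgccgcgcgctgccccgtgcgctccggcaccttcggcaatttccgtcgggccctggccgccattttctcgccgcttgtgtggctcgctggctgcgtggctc
Mbnl1: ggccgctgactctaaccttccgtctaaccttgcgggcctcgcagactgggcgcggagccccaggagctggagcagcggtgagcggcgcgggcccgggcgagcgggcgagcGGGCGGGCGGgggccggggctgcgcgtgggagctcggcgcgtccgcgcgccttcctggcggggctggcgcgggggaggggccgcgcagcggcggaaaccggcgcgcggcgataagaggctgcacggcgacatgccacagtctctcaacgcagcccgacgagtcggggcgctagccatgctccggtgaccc
Mbnl3: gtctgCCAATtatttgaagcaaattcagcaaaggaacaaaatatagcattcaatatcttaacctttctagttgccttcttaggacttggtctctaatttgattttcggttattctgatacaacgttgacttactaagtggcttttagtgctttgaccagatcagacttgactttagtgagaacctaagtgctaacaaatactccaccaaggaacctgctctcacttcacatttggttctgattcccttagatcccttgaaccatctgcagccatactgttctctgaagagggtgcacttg

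Over all members, 66 of 73 matched a RefSeq entry, with 70 promoters (Ddx24, Sf3b2, Celf4, Rbfox3, Celf2, Rbm20 and Rbm4 had no entry). Their median content of G and C was 61.0%, compared with 51.7% over 33469 promoters of the same length. These belong to all 27457 genes of the reference and not only to genes listed for ARVM. Whether listed genes in general differ from all promoters in the same way was not tested. GGGCGG stood in 51.4% of member promoters and 33.1% of all, CCAAT in 40.0% and 37.5%, TATAAA in 7 of the 70 and in 14.2% of all, and CACGTG in 12.9% and 6.42%, each counted on both strands. Members that rose had CCAAT in 45.2% of 31 promoters and members that fell in 32.4% of 34, and the medians of G and C were 58.7% and 63.0%. TATAAA stood in 16.1% and 5.88%, and CACGTG in 16.1% and 11.8%. GGGCGG stood in 51.6% and 52.9%, so its split by direction in the printed promoters is not seen over all members. These are descriptions of sequence, with no test, and a match does not show a bound factor.

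The SR proteins mostly rose in PH-CM. Of 7 listed Srsf members 6 rose and 1 fell, where 53.9% of all listed genes rose and 43.7% fell. Srsf9 had 199, 186 and 153 normalized counts in fresh ARVM and 357, 262 and 361 in PH-CM ARVM (log2 fold change 0.85, SE 0.19, limma adjusted p = 0.00294). Srsf6 had 1182, 1114 and 1139 in fresh and 1809.7, 1587 and 1879.7 in PH-CM libraries (log2 fold change 0.62, SE 0.078, limma adjusted p = 0.000173). In both, the groups were clearly apart, and PH-CM ARVM B was the lowest of its group. Srsf2, which binds exonic enhancers and stays in the nucleus, had 1850.0, 2557 and 2145 in fresh and 3315, 2719 and 3262 in PH-CM libraries (log2 fold change 0.51, SE 0.13, limma adjusted p = 0.00542). Srsf1, the first SR protein to be described and a regulator of calcium-handling exons in the heart, had 3088, 3573 and 3562 in fresh and 4578, 3977 and 5016 in PH-CM libraries (log2 fold change 0.41, SE 0.098, limma adjusted p = 0.00477). Srsf3 followed with a log2 fold change of 0.33. In 6 of the 7 members, all those listed but Srsf12, PH-CM ARVM B lay nearest to the fresh libraries, and it did so in 37 of the 73 members overall.

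Srsf12, an SR-related protein with tissue-restricted expression, was nearly absent from fresh ARVM, with 0, 0 and 5.17 normalized counts (5 reads in all), and had 25.7, 46.6 and 44.0 in PH-CM ARVM (140 reads, log2 fold change 4.39, SE 0.73, limma adjusted p = 0.000744). The reads in the fresh group came from fresh ARVM 6 alone. Srsf11, an SR-like protein that associates with U2AF, went the other way, with 1304, 1186 and 1276 in fresh ARVM and 852, 894 and 808 in PH-CM ARVM (log2 fold change −0.56, SE 0.074, limma adjusted p = 0.000208).

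**Figure D3:**
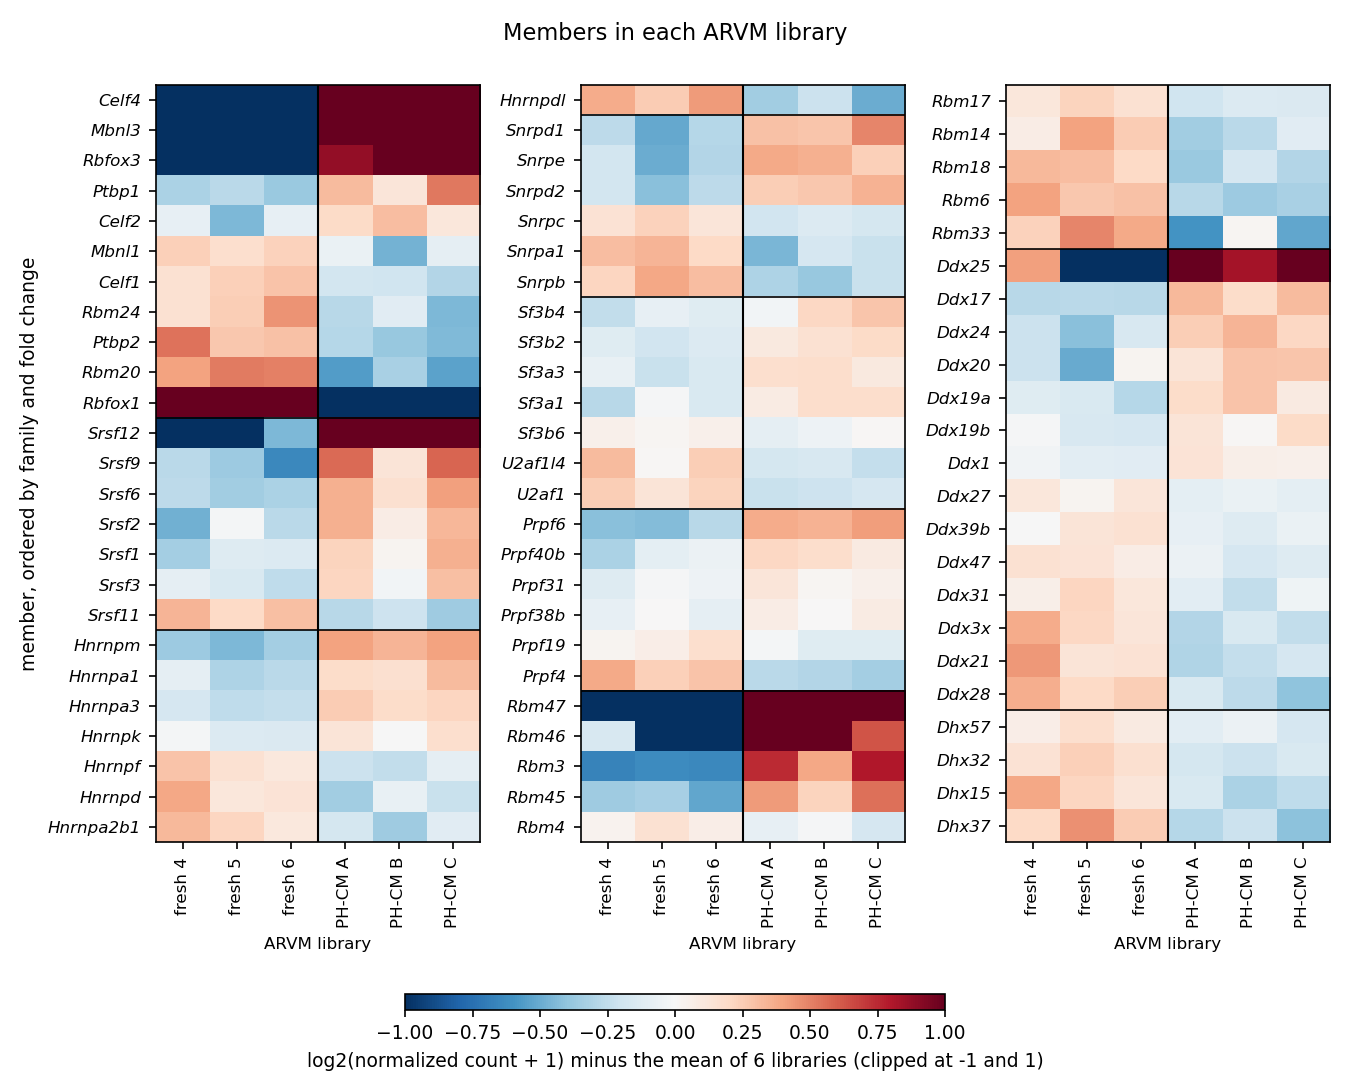
Members in each ARVM library as log2(normalized count + 1) minus the mean of the 6 libraries (color, clipped at −1 and 1), with libraries along the horizontal axis and members along the vertical axis, ordered by family and fold change. Red is above and blue below the member's mean, and black lines separate families and groups. PH-CM ARVM B is paler than the other PH-CM libraries for most Srsf members.

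The hnRNPs divided evenly, with 4 that rose and 4 that fell. Hnrnpm, which regulates exon inclusion during epithelial to mesenchymal changes, had 1750.3, 1646 and 1772 normalized counts in fresh ARVM and 2973, 2842 and 2976 in PH-CM ARVM (log2 fold change 0.77, SE 0.056, limma adjusted p = 8.77e-06). The splicing repressor Hnrnpa1 had 9494, 8152 and 8365 in fresh and 11461, 11272 and 12576 in PH-CM libraries (log2 fold change 0.44, SE 0.078, limma adjusted p = 0.000991). Hnrnpa3 had 3289, 3098 and 3134 in fresh and 4409.6, 4180.1 and 4281 in PH-CM libraries (log2 fold change 0.43, SE 0.052, limma adjusted p = 0.000131). Replicates of Hnrnpm and Hnrnpa3 lay close together, and those of Hnrnpa1 were wider. Among the members that fell, Hnrnpdl had 5191, 4785 and 5382 in fresh and 3156, 3451 and 2846 in PH-CM libraries (log2 fold change −0.70, SE 0.082, limma adjusted p = 0.000113). Its relative Hnrnpd, known as AUF1 for its part in the decay of AU-rich mRNAs, had 821, 679 and 688 in fresh and 493, 595 and 537 in PH-CM libraries (log2 fold change −0.43, SE 0.11, limma adjusted p = 0.00745). The A and B type hnRNPs, which are close in sequence, thus went in different directions. Hnrnpa2b1, which packages pre-mRNA with Hnrnpa1, had 11629, 10748 and 9989 in fresh and 8213, 7237 and 8601 in PH-CM libraries (log2 fold change −0.43, SE 0.086, limma adjusted p = 0.00188), opposite to Hnrnpa1 and Hnrnpa3. Hnrnpf fell with a log2 fold change of −0.36, and Hnrnpk rose with 0.20, a call that was lost without PH-CM ARVM A or C or fresh ARVM 5 or 6 (limma adjusted p = 0.0608, 0.064, 0.0688 and 0.0681). How reads were shared between near-identical copies is not stated, and Hnrnpa1 and Hnrnpa3 have processed pseudogenes, so that their values are uncertain.

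The snRNP proteins were also evenly divided, with 3 that rose and 3 that fell. The Sm proteins Snrpd1, Snrpd2 and Snrpe, which form part of the ring around the spliceosomal snRNAs, rose. Snrpd1 had 1951, 1639.9 and 1920.4 normalized counts in fresh ARVM and 2869, 2840.2 and 3288 in PH-CM ARVM (log2 fold change 0.71, SE 0.090, limma adjusted p = 0.000175). Snrpe had 4409, 3551 and 4082 in fresh and 6499.9, 6392 and 5883 in PH-CM libraries (log2 fold change 0.65, SE 0.086, limma adjusted p = 0.000233). Snrpd2 had 4363, 3713 and 4139 in fresh and 5889, 5975 and 6329 in PH-CM libraries (log2 fold change 0.58, SE 0.071, limma adjusted p = 0.000151). In these 3 genes fresh ARVM 5 was the lowest library. A further protein of the same ring, Snrpb, fell, with 3255, 3683 and 3475 in fresh and 2267, 2162 and 2407 in PH-CM libraries (log2 fold change −0.61, SE 0.068, limma adjusted p = 8.91e-05). Of the particle-specific proteins, the U2 protein Snrpa1 had 1257, 1285 and 1168 in fresh and 740.4, 902 and 870.0 in PH-CM libraries (log2 fold change −0.57, SE 0.092, limma adjusted p = 0.000663). The U1 protein Snrpc had 1410.1, 1496 and 1382 in fresh and 1112, 1159 and 1129 in PH-CM libraries (log2 fold change −0.33, SE 0.062, limma adjusted p = 0.00134). Both fell, Snrpa1 further than Snrpc. The small Sm genes have processed copies, so that their counts are uncertain in the same way.

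Proteins that recognize the branch point and 3′ splice site showed small differences. Of 7 listed Sf3a, Sf3b and U2af members 4 rose, 2 fell and 1 did not pass. Sf3b2 had 3695, 3527 and 3655 normalized counts in fresh ARVM and 4295, 4473 and 4595 in PH-CM ARVM (log2 fold change 0.30, SE 0.052, limma adjusted p = 0.001). Sf3a3 had 836, 753 and 790.3 in fresh and 985, 992 and 939 in PH-CM libraries (log2 fold change 0.29, SE 0.074, limma adjusted p = 0.00558). With Sf3b4 and Sf3a1, at log2 fold changes of 0.30 and 0.29, the SF3 proteins that rose lay between 0.29 and 0.30. The call of Sf3b4 was lost without PH-CM ARVM B or C or fresh ARVM 4 (limma adjusted p = 0.066, 0.0814 and 0.0675). The small SF3B protein Sf3b6 had 1426, 1394 and 1421 in fresh and 1293, 1328 and 1383 in PH-CM libraries and did not pass (log2 fold change −0.08, SE 0.059, limma adjusted p = 0.194). U2af1, the small U2AF subunit that reads the AG of the 3′ splice site, had 1777, 1633 and 1743 in fresh and 1278, 1298 and 1329.6 in PH-CM libraries (log2 fold change −0.40, SE 0.061, limma adjusted p = 0.000446). Its paralog U2af1l4 had 867, 702 and 825 in fresh and 616, 624 and 592 in PH-CM libraries (log2 fold change −0.38, SE 0.099, limma adjusted p = 0.00671). Both U2AF members fell while the SF3 members that passed rose.

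Of 6 listed Prpf members, 2 rose, 2 fell and 2 did not pass. Prpf6, which bridges the U5 and U4/U6 particles in the tri-snRNP, had 1289.8, 1271 and 1416 normalized counts in fresh ARVM and 2219.6, 2187 and 2292 in PH-CM ARVM (log2 fold change 0.75, SE 0.064, limma adjusted p = 1.93e-05). Prpf4, a U4/U6 protein of the same tri-snRNP, had 1399, 1264 and 1309.9 in fresh and 889, 874 and 849.7 in PH-CM libraries and fell (log2 fold change −0.60, SE 0.068, limma adjusted p = 9.28e-05). These tri-snRNP partners thus moved apart. Prpf40b, a U1-associated protein, rose with a log2 fold change of 0.32 and Prpf19, the ubiquitin ligase of the Prp19 complex, fell with −0.17, a call that was lost without PH-CM ARVM B or C or fresh ARVM 5 or 6 (limma adjusted p = 0.0644, 0.075, 0.059 and 0.113). Prpf31 and Prpf38b, further tri-snRNP and spliceosome proteins, had log2 fold changes of 0.13 and 0.11 and did not pass (limma adjusted p = 0.0981 and 0.118).

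Among the other 10 Rbm members, 4 rose, 5 fell and 1 (Rbm4, log2 fold change −0.17) did not pass. Rbm3, the cold-inducible RNA-binding protein that binds mRNAs and ribosomes, had 3691, 3795 and 3747 normalized counts in fresh ARVM and 9819.7, 7671 and 10232 in PH-CM ARVM (log2 fold change 1.29, SE 0.10, limma adjusted p = 1.49e-05). It rose to 2.47 times the fresh mean, and the fresh libraries were close to each other. Rbm47, an editing cofactor and splicing factor of epithelia, had no reads in fresh ARVM and 21.2, 14.7 and 14.4 in PH-CM ARVM (62 reads, at least 14.3-fold higher, limma adjusted p = 2.17e-05). Rbm46, best known from germ cells, had 14.2, 4.28 and 4.13 (17 reads) and 43.1, 50.04 and 25.4 (145 reads, log2 fold change 2.39, SE 0.52, limma adjusted p = 0.00289). Rbm45 rose with a log2 fold change of 0.80. Rbm33 fell from 628, 749 and 693 to 353, 540.1 and 373 (log2 fold change −0.73, SE 0.17, limma adjusted p = 0.00395), with PH-CM ARVM B well above the other PH-CM libraries. Rbm6 fell from 2671, 2439 and 2472 to 1665, 1570.2 and 1615 (log2 fold change −0.64, SE 0.060, limma adjusted p = 3.3e-05). Rbm18, Rbm14 and Rbm17 fell with log2 fold changes of −0.55, −0.49 and −0.32.

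The Ddx helicases were also divided, with 7 of 14 that rose, 6 that fell and 1 that did not pass. Ddx17, a splicing and transcription cofactor, had 897, 901 and 897 normalized counts in fresh ARVM and 1367, 1239 and 1357 in PH-CM ARVM (log2 fold change 0.55, SE 0.067, limma adjusted p = 0.000138). Ddx24 had 1829, 1591 and 1893 in fresh and 2508, 2681 and 2452 in PH-CM libraries (log2 fold change 0.53, SE 0.079, limma adjusted p = 0.000417). The fresh libraries were almost equal for Ddx17. Of the members that fell, Ddx3x, an X-linked helicase of translation, had 14354, 12770.1 and 12048 in fresh and 9044, 9986 and 9336 in PH-CM libraries (log2 fold change −0.46, SE 0.079, limma adjusted p = 0.000857). Ddx21, a nucleolar helicase of ribosomal RNA synthesis and processing, had 6329, 5131 and 5187 in fresh and 3817, 3977 and 4188 in PH-CM libraries (log2 fold change −0.47, SE 0.089, limma adjusted p = 0.00148). Ddx28, a mitochondrial helicase of ribosome assembly, had 551, 492 and 508 in fresh and 385, 356 and 323 in PH-CM libraries (log2 fold change −0.54, SE 0.11, limma adjusted p = 0.0022).

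Ddx25, a helicase of male germ cells, had 12.7, 0 and 4.13 normalized counts in fresh ARVM (12 reads) and 29.5, 17.3 and 28.8 in PH-CM ARVM (93 reads, log2 fold change 2.63, SE 0.87, limma adjusted p = 0.0191), and its call was lost without PH-CM ARVM A or C (limma adjusted p = 0.068 and 0.0597). Ddx19a, Ddx19b, Ddx20 and Ddx1 rose with log2 fold changes of 0.37, 0.22, 0.46 and 0.17. Of these, Ddx19b lost its call without PH-CM ARVM A or C or fresh ARVM 5 or 6 (limma adjusted p = 0.0833, 0.103, 0.0995 and 0.103), Ddx20 without PH-CM ARVM B or C or fresh ARVM 5 (0.0621, 0.0647 and 0.0644) and Ddx1 without PH-CM ARVM A or fresh ARVM 5 or 6 (0.0504, 0.0604 and 0.0619). Ddx19a and Ddx19b encode near-identical export helicases, and how reads were shared between them is not stated. Ddx47, Ddx39b and Ddx27 fell with log2 fold changes of −0.24, −0.19 and −0.17, and Ddx31 at −0.26 did not pass (limma adjusted p = 0.06). The calls of Ddx39b and Ddx27 were lost without fresh ARVM 6 (limma adjusted p = 0.0756 and 0.0775), and also without fresh ARVM 5 for Ddx39b (0.0675) and without fresh ARVM 4 for Ddx27 (0.0535).

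All 4 listed Dhx helicases were lower in PH-CM, of which 3 passed, where 43.7% of all listed genes fell. Dhx15, which takes the spliceosome apart after the reaction, had 3024, 2684 and 2519.6 normalized counts in fresh ARVM and 2086, 1865 and 1947 in PH-CM ARVM (log2 fold change −0.48, SE 0.081, limma adjusted p = 0.000819). Dhx37, a helicase of small ribosomal subunit assembly, had 768, 917 and 796 in fresh and 547, 575 and 501 in PH-CM libraries (log2 fold change −0.61, SE 0.10, limma adjusted p = 0.000715). The fresh and PH-CM libraries of both were well apart. Dhx32 had 409.9, 437 and 415 in fresh and 328, 320.1 and 333 in PH-CM libraries (log2 fold change −0.36, SE 0.10, limma adjusted p = 0.0101). Dhx57 had 473, 509 and 481 in fresh and 421, 435 and 403 in PH-CM libraries and did not pass (log2 fold change −0.22, SE 0.095, limma adjusted p = 0.0547). The 3 that passed kept their calls with each library left out in turn.

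The listed helicases were also counted on lists named after steps of RNA metabolism, beside the 53.9% of all listed genes that rose. Differences between these small groups were not tested. Of 12 helicases of the spliceosome 3 were listed, of which Ddx17 rose and Ddx39b and Dhx15 fell. Of 15 helicases of ribosome biogenesis 6 were listed, of which Ddx24 rose, Ddx21, Ddx27, Ddx47 and Dhx37 fell and Ddx31 did not pass (median log2 fold change −0.25). Of 12 helicases on the list of mRNA export, translation and decay 6 were listed, of which Ddx1, Ddx19a, Ddx19b, Ddx20 and Ddx25 rose and Ddx3x fell (median 0.30, compared with 0.37 over all listed genes). This list is loose, since Ddx20 belongs to the SMN complex that assembles snRNPs and Ddx1 to the tRNA ligase complex. Its counts therefore do not describe a single step. Although 5 of the 6 rose, the summed normalized counts of the last list, Ddx3x included, were 16579 to 19163 in fresh ARVM and 14579 to 15386 in PH-CM ARVM.

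Splicing genes outside these families were also divided. Of 104 further splicing genes on a list of core and regulatory factors, 34 were listed for ARVM. Among all genes listed for ARVM, 53.9% rose, 43.7% fell and the median log2 fold change was 0.37. Of the 34, 14 rose, 18 fell and 2 did not pass, with a median log2 fold change of −0.20. The largest falls were those of Srpk3, a muscle-specific kinase of SR proteins, from 1162 ± 140.4 (SD, n = 3) to 381 ± 13.7 normalized counts (log2 fold change −1.60, limma adjusted p = 5.48e-06), and of Khdrbs3, a STAR family splicing regulator, from 791 ± 62.5 to 264 ± 59.8 (log2 fold change −1.60, limma adjusted p = 6.36e-05). Pspc1, a paraspeckle protein, rose from 291 ± 42.1 to 579 ± 20.5 (limma adjusted p = 0.000211). Of 18 other RNA helicases 8 were listed, of which 3 rose and 5 fell (median −0.26), and Eif4a2, a helicase of translation initiation, fell from 22320.1 ± 1726 to 9281 ± 583 (log2 fold change −1.27, limma adjusted p = 3.85e-06). These 4 genes were chosen after their values were seen.

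In Cfib, most listed members fell. All 21 listed members passed (100%, against 97.5% of all listed genes), of which 6 rose in PH (28.6%, against 58.2% of all listed genes) and 15 fell (71.4%, against 39.4%). Their median log2 fold change was −0.29, compared with 0.33 over all listed genes, and 0 reached 1 in size. Median-of-ratios rescaling takes most genes to be unchanged, which cannot be assumed here, since every listed gene had been selected for a difference. Which scale holds is therefore not settled. Applied to the Cfib libraries, the rescaling moved log2 fold changes by a median of −0.27. On that scale 15 members fell (71.4%, against 41.1% of all listed genes), 0 rose with limma (against 39.7%, with 80.8% called in all, and 0 members higher at an unadjusted p under 0.05), their median was −0.57, compared with 0.07 over all listed genes, and the sign of DDX5, DDX17, PRPF19 and RBM39 turned to lower. With the PH libraries averaged into 1 sample, 4 members fell and 0 rose with limma (0 higher at an unadjusted p under 0.05). No muscle regulator of the list was listed for Cfib, nor was any SNRP, SF3 or U2AF member.

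Marker levels shifted in Cfib as well. Of 10 fibroblast markers 4 were listed and all rose, from a summed signal of 2005 to 2656 in CO to 6423 to 6721 in PH. Of 7 proliferation markers 5 were listed and all fell, from 160.2 to 246 to 12.1 to 14.1. Of 4 smooth muscle markers 3 were listed, of which 2 rose and 1 fell (93.8 to 131 and 211.3 to 225), and of 8 leukocyte markers 3 were listed at low levels, of which 2 rose and 1 fell (8.06 to 11.1 and 5.94 to 7.08). Cardiomyocyte, endothelial and erythroid markers were not listed. The part of these shifts in the values of the members was not tested.

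The members are given in the deposited signal, and levels are not compared between genes, since it is not known whether gene length entered it. DDX5, a DEAD-box helicase of splicing and transcription, had 372, 385 and 394 in CO Cfib 1, 2 and 3 and 442, 448 and 439.9 in PH Cfib 1, 2 and 3. Its relative DDX17 had 152, 137 and 138 in CO and 175, 165 and 164 in PH libraries. Both helicases were higher in every PH library than in any CO library, and the groups are apart in this way in every listed gene. HNRNPH1 had 212, 199.9 and 222 in CO and 192, 185 and 179 in PH libraries. HNRNPA3 had 158, 179 and 182 in CO and 144, 136 and 135 in PH libraries, and both hnRNPs were lower in PH. RBM28 had 13.4, 12.2 and 11.4 in CO and 8.94, 9.03 and 8.81 in PH libraries. RBM4B had 10.8, 11.4 and 9.04 in CO and 13.7, 13.9 and 13.8 in PH libraries, a difference in the opposite direction.

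The SR proteins and hnRNPs listed for Cfib all fell. SRSF1 had 75.5, 82.3 and 72.8 in CO Cfib and 61.1, 57.3 and 59.0 in PH Cfib (log2 fold change −0.37, SE 0.066, limma adjusted p = 0.00188). SRSF2 had 90.9, 88.4 and 101 in CO and 73.9, 70.1 and 68.6 in PH libraries (log2 fold change −0.39, SE 0.069, limma adjusted p = 0.00191). SRSF1 stood at 0.769 and SRSF2 at 0.760 of the CO mean. The largest fall among hnRNPs was that of HNRNPH2, from 34.6, 36.4 and 43.1 to 26.6, 25.9 and 26.7 (log2 fold change −0.50, SE 0.089, limma adjusted p = 0.00185). HNRNPR, a nuclear mRNA-binding protein, fell from 57.2, 63.4 and 65.8 to 47.5, 48.2 and 48.5 (log2 fold change −0.36, SE 0.067, limma adjusted p = 0.00228), HNRNPA3 from the values above with a log2 fold change of −0.32, and HNRNPH1 with −0.19. The call of HNRNPH1 was lost without CO Cfib 1 or PH Cfib 2 or 3 (limma adjusted p = 0.0553, 0.0906 and 0.11). In each of these 6 genes the lowest CO library lay above the highest PH library, but groups did not overlap in any listed gene.

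Among helicases, DDX41, which acts in late splicing steps and in DNA sensing and is mutated in familial myeloid neoplasms, had 40.3, 53.2 and 52.0 in CO Cfib and 26.8, 29.5 and 28.6 in PH Cfib (log2 fold change −0.75, SE 0.11, limma adjusted p = 0.000995), the largest change of the 21 members. DDX19B, the export helicase, had 25.3, 27.6 and 26.4 in CO and 15.2, 17.4 and 19.6 in PH libraries (log2 fold change −0.58, SE 0.098, limma adjusted p = 0.00152). DHX15 had 62.3, 65.4 and 62.8 in CO and 46.3, 47.9 and 47.2 in PH libraries (log2 fold change −0.42, SE 0.051, limma adjusted p = 0.00038). The groups of all 3 lay well apart, and CO Cfib 1 was the lowest CO library of DDX41. DHX29, which helps ribosomes scan structured leaders, had 20.1, 20.8 and 19.5 in CO and 16.6, 17.4 and 17.6 in PH libraries (log2 fold change −0.22, SE 0.062, limma adjusted p = 0.013). The U5-associated helicase DDX23 fell with a log2 fold change of −0.18. The calls of DHX29 and DDX23 were lost without PH Cfib 1 (limma adjusted p = 0.0544 and 0.0591), and that of DDX23 also without PH Cfib 3 (0.0635). DDX17 and DDX5, which are close relatives, rose together at the deposited scale, with log2 fold changes of 0.24 (SE 0.068, limma adjusted p = 0.0131) and 0.21 (SE 0.066, limma adjusted p = 0.0198), and stood at −0.048 and −0.080 after rescaling. Their calls were lost without PH Cfib 1 (limma adjusted p = 0.0504 and 0.0574), and that of DDX5 also without PH Cfib 2 or 3 (0.0838 and 0.0635).

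By the same lists, 5 of 12 helicases of the spliceosome were listed for Cfib, of which DDX5 and DDX17 rose and DDX23, DDX41 and DHX15 fell. Of 12 helicases of export, translation and decay, DDX19B and DHX29 were listed and fell, and of 15 helicases of ribosome biogenesis 0 were listed. Of 104 splicing genes outside the families 7 were listed, of which 2 rose, 4 fell and 1 did not pass, and of 18 other RNA helicases 1 was listed and fell. Of all genes listed for Cfib, 58.2% rose and 39.4% fell. Of these 7 splicing genes, the largest change was that of NOVA1, a splicing regulator best known from neurons, which rose from 6.76 ± 1.68 (SD, n = 3) in CO to 11.6 ± 2.20 in PH (log2 fold change 0.71, limma adjusted p = 0.0102). The largest fall was that of CDC5L, a Prp19 complex partner, from 43.6 ± 4.48 (SD, n = 3) in CO to 28.8 ± 1.08 in PH (log2 fold change −0.58, limma adjusted p = 0.000889). Both genes were named after their values were seen.

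The Rbm and Prpf members of Cfib were mixed. RBM7, an adaptor of the nuclear exosome, fell from 24.5, 23.5 and 25.9 to 18.2, 16.7 and 17.5 (log2 fold change −0.47, SE 0.067, limma adjusted p = 0.000713), and RBM28, a nucleolar protein, fell from the levels given above (log2 fold change −0.43, SE 0.080, limma adjusted p = 0.00251). RBM4B rose (log2 fold change 0.38, SE 0.095, limma adjusted p = 0.00792), and so did RBM5, a regulator of apoptosis gene splicing, from 60.4, 54.8 and 58.3 to 72.1, 71.2 and 70.1 (log2 fold change 0.30, SE 0.058, limma adjusted p = 0.00281). RBM39, which was named after its values were seen, rose with a log2 fold change of 0.26. After rescaling, RBM4B stood at 0.11, RBM5 at 0.011 and RBM39 at −0.031, and none of them passed. PRPF4 had 21.4, 21.4 and 18.3 in CO and 16.8, 16.9 and 15.6 in PH (log2 fold change −0.29, SE 0.083, limma adjusted p = 0.0127). PRPF19 had 43.4, 43.2 and 46.4 in CO and 48.6, 51.4 and 50.1 in PH libraries (log2 fold change 0.17, SE 0.057, limma adjusted p = 0.0232). RBM23 fell with a log2 fold change of −0.25. The calls of PRPF4 and RBM23 were lost without PH Cfib 3 (limma adjusted p = 0.0514 and 0.0521), and that of PRPF19 without CO Cfib 1 or 2 or PH Cfib 2 or 3 (0.0527, 0.0575, 0.0964 and 0.0712).

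**Figure D4:**
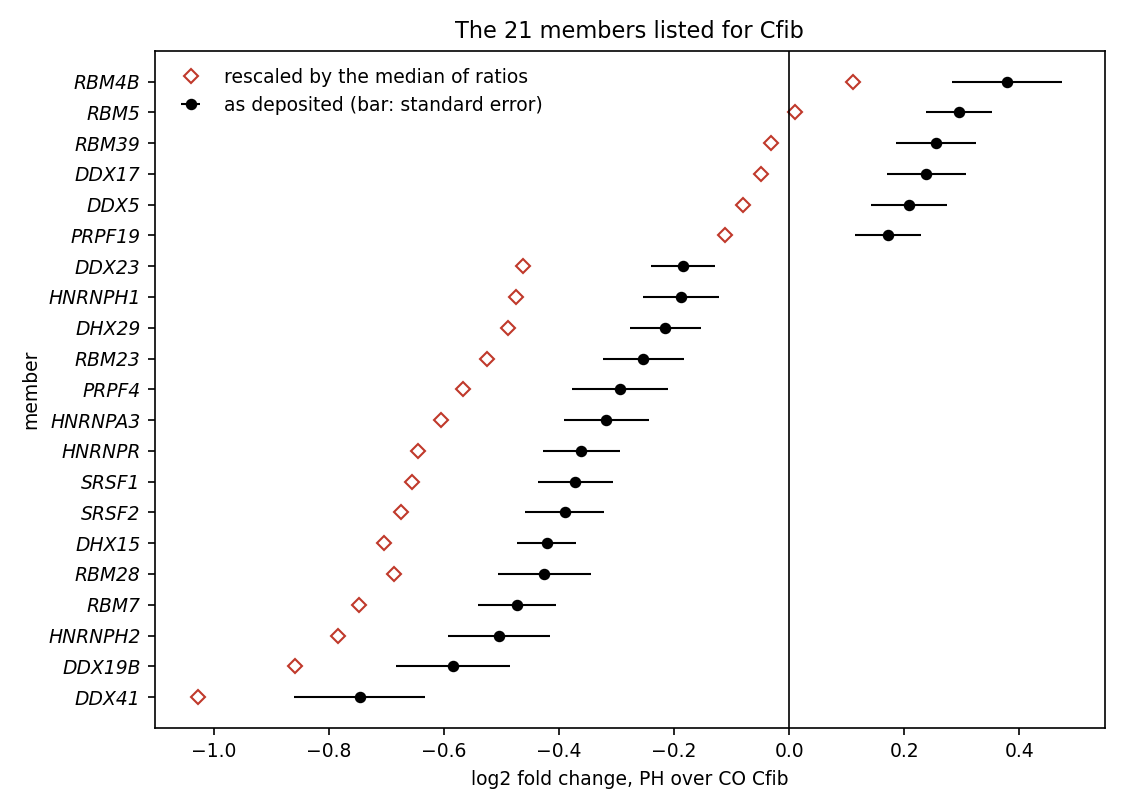
Log2 fold change, PH over CO Cfib (horizontal axis), of each of the 21 members listed for Cfib (vertical axis), at the deposited scale (black points, bars are standard errors) and after rescaling by the median of ratios (open red diamonds). At the deposited scale 15 members lie below zero and 6 above. Rescaling moves every point to the left and leaves RBM4B and RBM5 above zero.

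The 8 members listed for both cell types come from contrasts that share no library. Ddx17 (log2 fold change 0.55 in ARVM and 0.24 in Cfib), Dhx15 (−0.48 and −0.42) and Prpf4 (−0.60 and −0.29) had the same direction in both. Srsf2 (0.51 and −0.39), Hnrnpa3 (0.43 and −0.32), Srsf1 (0.41 and −0.37) and Ddx19b (0.22 and −0.58) were higher in PH-CM ARVM and lower in PH Cfib, and Prpf19 (−0.17 and 0.17) was the reverse. That is 3 of 8 in the same direction (37.5%), compared with 656 of all 1178 genes listed in both (55.7%). After rescaling of Cfib, Ddx17 at −0.048 had the opposite direction and Prpf19 at −0.11 the same, whereas the other 6 kept theirs. Dhx15 and Prpf4 fell in both cell types on either scale, and the SR proteins Srsf1 and Srsf2 differed in direction on either scale. The difference between the contrasts was not tested, since species, units and designs differ.

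**Figure D5:**
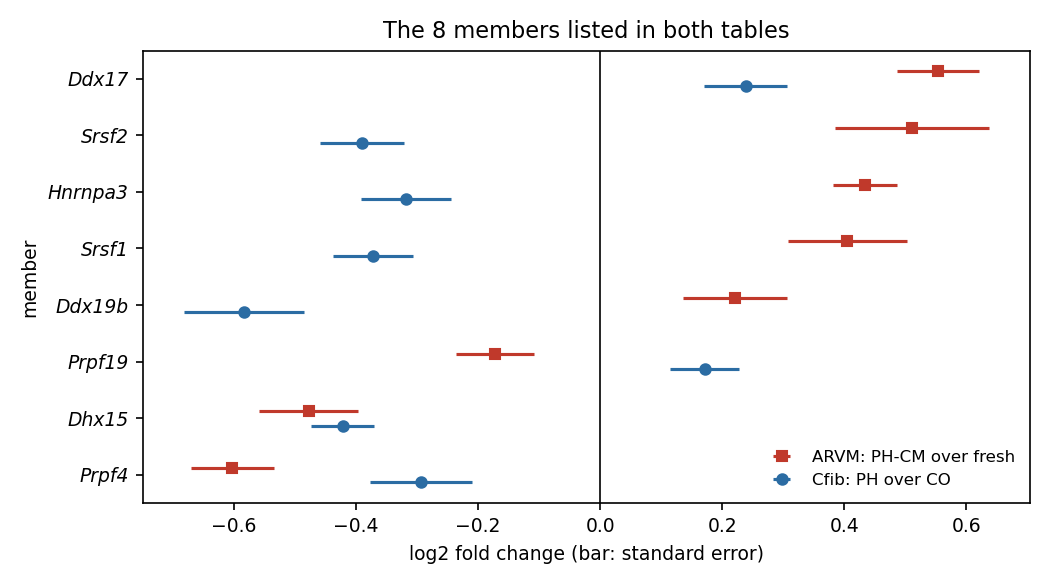
Log2 fold change (horizontal axis, bars are standard errors) of the 8 members listed for both cell types (vertical axis), for PH-CM over fresh ARVM (red squares) and PH over CO Cfib (blue circles). For 5 of the 8 the points lie on opposite sides of zero, and for Ddx17, Dhx15 and Prpf4 on the same side.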

How the data were processed

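RNA sequencing was analysed for 12 libraries in 4 groups of 3. Per the paper's methods, the authors depleted ribosomal RNA, sequenced on a HiSeq4000, aligned rat reads to RN6 and bovine reads to BosTau8 with HISAT2 and StringTie, normalized count matrices with DESeq2, considered genes with a value over 1 in a condition, and called genes at a p under 0.05, with p-values adjusted for multiple comparisons. In the deposited ARVM table the signal is each gene's read count over a library size factor, and 100% of values gave whole reads within 0.01 reads. The same methods cover the deposited Cfib table, but its signal has no common step per library as size-factor normalized counts would, so that its unit and any scaling by gene length are not settled and depth is unknown.

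Groups were compared on log2(value + 1) by limma 3.58.1 (trended eBayes, R 4.3.3) over all listed genes of each table, with Benjamini-Hochberg adjustment, a threshold of 0.05 and no filter. Alternatives were edgeR 4.0.16 (quasi-likelihood test, TMM, with and without filterByExpr) and DESeq2 1.42.0 on recovered ARVM reads, pseudocounts of 0.1 and 10, a minimum mean (50 for ARVM and 5 for Cfib), rescaling by the median of ratios, no trend, a log2 fold change of at least 1, each library left out, and for Cfib a replicate block and averaged PH libraries. Exact permutation tests used scipy 1.17.1 in Python 3.11.15. Tested on simulated data in which 200 genes differed by 2 on the log2 scale, limma found 199 of them among 7052 genes at the ARVM design (7 other calls) and 200 among 2115 genes at the Cfib design (17 other calls). Most members changed by less than this, and nearly all listed genes were called in the real data. The simulation therefore checks that the fits run correctly and does not measure how reliable the calls above are.

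Members and gene lists were chosen with earlier results of these data known. Named genes were all listed muscle regulators, the 3 largest rises and 3 largest falls that passed in each family for ARVM (2 and 2 for Cfib) and all members listed in both tables, with other members given by fold change. Gene-level values carry no isoforms. Promoters came from RefSeq GRCr8, which is not the build of the files, and no bovine promoter or protein sequence was used here.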

Additional observations from a re-analysis of the deposited data

How the results depend on the processing

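The depth of Cfib is unknown, and ARVM values below about 20 reads (Rbfox3, Srsf12, Ddx25, Rbm46) limit what their sizes show. The ARVM member median of 0.11 turned to −0.17 with a minimum mean of 50 and to −0.0117 with edgeR and filterByExpr, since both leave out members with few reads in fresh ARVM. With a log2 fold change of at least 1, 8 ARVM members rose, 1 fell, 1 muscle regulator fell, and 0 Cfib members rose and 0 fell, by construction. The Cfib median was −0.20 at a pseudocount of 10 and −0.57 after rescaling. On the rescaled values 0 members rose, and DDX17 (−0.048), DDX5 (−0.080), PRPF19 (−0.11) and RBM39 (−0.031) turned. The rescaling was estimated from genes selected for a difference, so it does not settle which scale holds. With the PH libraries averaged, 0 Cfib members rose and 4 fell, a fit that assumes the lone sample to vary like the CO libraries. Over the named genes and all alternatives, 62 of 803 ARVM values and 44 of 238 Cfib values no longer passed the threshold, and 3 in ARVM passed it anew. A further 3 Cfib values turned in sign and did not pass either. These totals include the log2 fold change of at least 1, which no Cfib member and few ARVM members reach. edgeR with TMM and DESeq2 each gave 33 ARVM members that rose and 32 that fell.

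ARVM groups share no replicate numbers. No paired analysis was possible because their libraries carry different numbers. For Cfib, the correlations of deviations of same-numbered libraries were 0.258, 0.0312 and 0.259. CO Cfib 1 and CO Cfib 3 correlated best with the PH library of their own number, and CO Cfib 2 with PH Cfib 1 (0.102). Whether the numbers mark a pairing or a shared batch is thus not settled, and the main fit did not use them. With the replicate block, 4 Cfib members rose and 14 fell.

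When single libraries were left out, 29 to 34 ARVM members rose and 29 to 32 fell, the ARVM median ran from 0.09 to 0.14, 4 to 6 Cfib members rose and 11 to 15 fell, and the Cfib median ran from −0.31 to −0.26. Of the calls, 9 of 66 in ARVM and 8 of 21 in Cfib were lost in at least 1 of these fits.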
